A study of Mus musculus with 8 samples.

Results

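The genes described here are 39 genes of autophagy and the lysosome, measured as messenger RNA in detached mouse retinas. They were taken by name from the deposited table of 56465 features, keeping the feature with the highest mean where a symbol had several, and all 39 were found. Of these, 16 act in autophagy and 23 in the lysosome. All 39 had a mean of at least 10 normalized reads over the 8 libraries and were among the 19798 features tested. The TG group held 4 retinas of mice expressing human transferrin, which carries iron in blood plasma (TG 2 and 5 male, TG 6 and 8 female). The WT group held 4 retinas of wild-type mice (WT 3, 4 and 5 male, WT 7 female). All carried the C57Bl/6J background, and every retina had been detached 4 days earlier by a subretinal injection of sodium hyaluronate, so no attached retina stands beside them. Not given in the sources used here are the promoter of the transgene, the age of the mice and whether each TG retina came from its own mouse. The WT retinas were right eyes of males (WT 3, 4 and 5) and a left eye of a female (WT 7). Each WT retina therefore came from a different mouse. The TG retinas were a left and a right eye of each sex (TG 2 and 6 left, TG 5 and 8 right). Their numbers differ, but eye side leaves the question open for TG. The p-values measure the spread among libraries, which in TG may include that between eyes of the same mouse. Genes are called higher or lower in TG by the sign of the fitted difference, whether or not it passed the test.

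In autophagy a membrane closes around cytoplasm or a damaged organelle and the resulting autophagosome fuses with a lysosome, where the contents are digested. Ubiquitin-like proteins of the Atg8 family (the LC3 and GABARAP proteins) are joined to the membrane lipid by a conjugation cascade, and cargo receptors bind them on one side and cargo on the other. Lysosomes hold acid hydrolases, a membrane rich in glycosylated proteins and a proton pump, the V-ATPase, that keeps them acidic. Rod photoreceptors use autophagy for basal turnover and under stress, the pigment epithelium digests shed outer segments in lysosomes, and microglia digest debris in theirs. Transferrin itself delivers iron through endosomes acidified by the same pump.

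Libraries held 61535690 to 70540242 counted reads in TG and 68433927 to 75866423 in WT. Rod markers were abundant in every library, with sums of normalized reads over 12 genes of 4230234 to 6532191 in TG and 4714009 to 5378780.1 in WT. Tissue next to the retina was unevenly present. The sum of 12 pigment epithelium markers was 46181, 12987, 25579.7 and 7597 in TG, against 104652, 4884, 8214 and 13595 in WT (TG 2, 5, 6 and 8, and WT 3, 4, 5 and 7, the order used for all values below). It was highest in WT 3, then in TG 2, where Ttr, at 67791 and 30941 normalized reads, made up most of it. Rpe65, Lrat, Rdh5, Rgr and Slc16a8 ranked these libraries alike. Tyr and Dct were highest in WT 3, then in WT 7. Tyrp1 was highest in TG 6, Mlana and Pmel in WT 7 and Best1 in WT 4. The sum of 12 lens markers was 279, 6192, 22738 and 639.9 in TG, against 27776, 948, 159.6 and 217 in WT, highest in WT 3 and TG 6. In bulk tissue, fewer cells of a type and less RNA per cell cannot be told apart.

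None of the 39 genes differed between TG and WT past the threshold. With limma on log2(normalized reads + 1), 0 of 39 had an adjusted p under 0.05 (Benjamini-Hochberg over all features), beside 2 of 19798 features, or 0.0101%. The smallest adjusted p among the 39 was 0.92. The count tests edgeR and DESeq2 on the recovered reads also called 0 of 39, with smallest adjusted p-values of 0.97 and 0.73. They called 0.0101% and 0.0808% of all features. At an unadjusted p under 0.05 there were 3 of 39 with limma (Grn, Atg5 and Ctsz), 2 with edgeR and 3 with DESeq2. The shares of all features at that p were 4.64% with limma, 4.12% with edgeR and 5.34% with DESeq2. The groups did not overlap for Atg7 and Ctsz, 2 of 39, both higher in TG, where 2.53% of all features did not overlap and 1.36% did so with TG higher.

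The estimates were narrow enough to bound most differences. The 95% interval of the log2 fold change lay within a 2-fold change in either direction for 36 of the 39 genes, against 53.8% of all features and 80.9% of features with a mean at least that of the lowest of the 39. The exceptions were Ulk1 (-1.05 to 0.23), Lipa (-1.01 to 0.88) and Glb1 (-0.84 to 1.09). It lay within a 1.5-fold change for 26 of the 39. The median standard error was 0.15, against 0.30 for all features. Fitted log2 fold changes (TG over WT) ran from -0.49 for Atg5 to 0.50 for Grn. Their median was 0.06, against -0.02 over all features, with 25 genes higher and 14 lower. The median was -0.01 for the 16 autophagy genes, 8 of them higher, and 0.12 for the 23 lysosome genes, 17 of them higher.

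**Figure D1:**
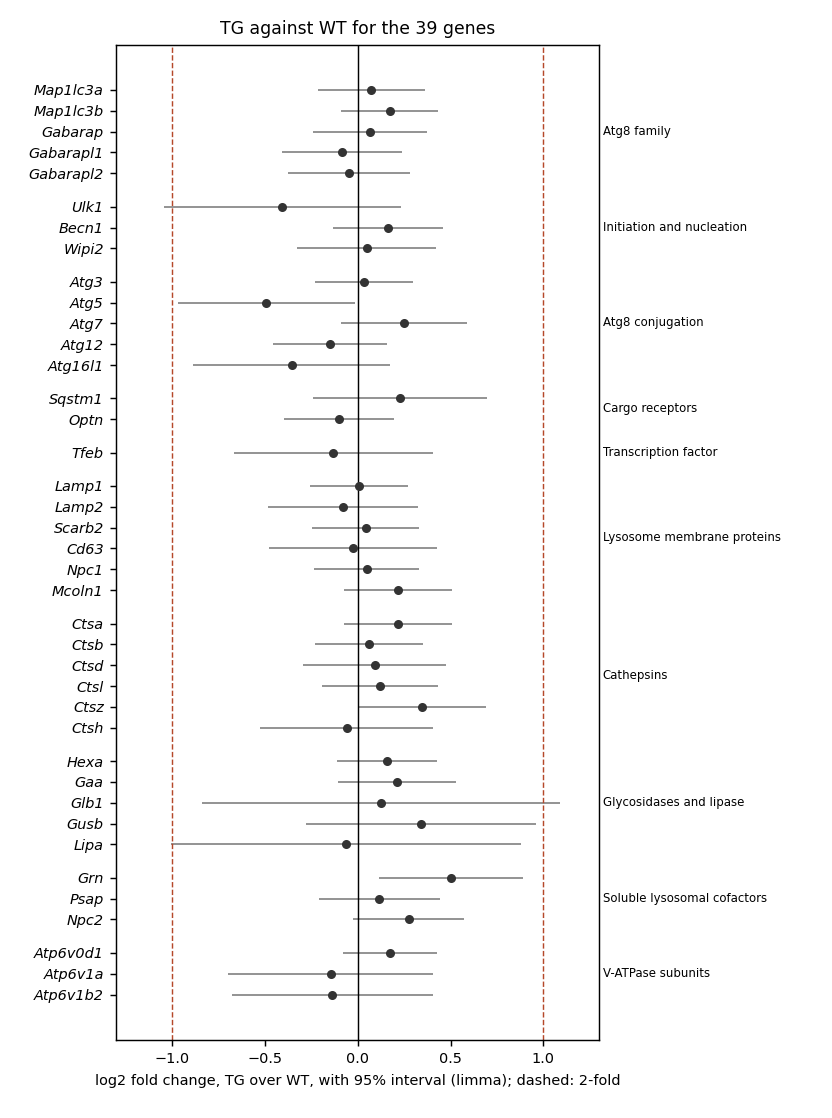
Log2 fold change of TG over WT (points, horizontal axis) with 95% intervals (lines, limma, 4 libraries a group) for the 39 genes, ordered by role from top to bottom. Dashed lines mark a 2-fold change, which the intervals of Ulk1, Glb1 and Lipa reach. Grn stands highest at 0.50 and Atg5 lowest at -0.49.

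Levels spanned more than the genotypes did. Per kilobase of merged exon (GENCODE M21, GRCm38), Ctsb, a cysteine protease of the lysosome, had the highest mean level, at normalized reads per kilobase of 12585 ± 1408 in TG and 12048 ± 1177 in WT (SD, n = 4 each). The aspartic protease gene Ctsd followed at 11239 ± 1797 in TG and 10685 ± 2695 in WT. Gabarap, of the Atg8 family, stood at 10605 ± 1356 in TG and 10139 ± 1559 in WT, and Psap, whose product is cut into the saposins that help break down sphingolipids, at 10519 ± 1876 in TG and 9655 ± 1363 in WT. Each differed from the next in this order by less than the larger of their SDs, while Ctsb and Psap differed by more than either SD. On this scale each of the 4 lay above 97.2% to 97.6% of the measured genes with a symbol. The lowest level per kilobase was that of Lipa, the acid lipase, at 32.4 ± 13.4 in TG and 33.7 ± 16.4 in WT. Glb1, a beta-galactosidase, followed at 37.3 ± 21.5 in TG and 31.4 ± 10.9 in WT, and Tfeb at 46.1 ± 5.74 in TG and 51.6 ± 14.7 in WT, and the spread of these 3 overlapped. The feature carrying Glb1 also carries the symbol Tmppe, so its reads belong to both genes.

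**Figure D2:**
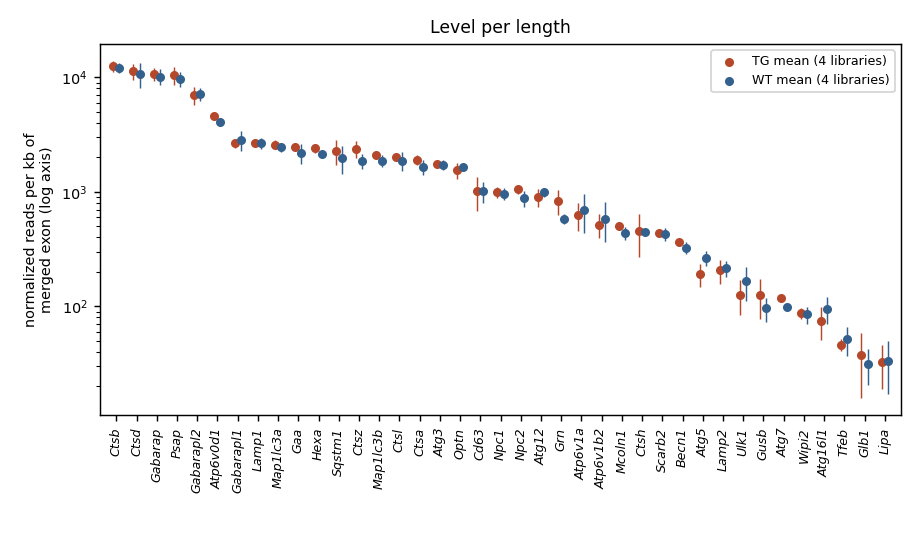
Mean normalized reads per kilobase of merged exon (vertical log axis) for the 39 genes in TG (left point of each pair) and WT (right point), with SD over 4 libraries. The means of Ctsb, Ctsd, Gabarap and Psap lie between 9655 and 12585, and those of Tfeb, Glb1 and Lipa between 31.4 and 51.6.

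The Atg8 family, the conjugated proteins themselves, had 3 members higher and 2 lower, with log2 fold changes from -0.08 to 0.17. Map1lc3b, which encodes LC3B, the usual marker of autophagosomes, had 14419, 15913, 16162 and 16205 normalized reads in TG, against 12763, 13111, 16477 and 13558 in WT. TG 2 was the lowest TG library, and WT 5 was the highest of all 8, so the groups overlapped. For Map1lc3b, the fitted log2 fold change was 0.17 ± 0.12 (SE; 95% interval -0.09 to 0.43; limma adjusted p = 0.92). Map1lc3a, Gabarap, Gabarapl1 and Gabarapl2 had log2 fold changes of 0.07, 0.07, -0.08 and -0.05. The signs of Gabarap, Gabarapl1 and Gabarapl2 turned with males only or when 1 library was left out. Exons of Gabarapl1 share 28.3% of their bases with a transcript on the other strand, and whether reads were counted by strand is unknown.

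Among genes that start an autophagosome, Ulk1, the kinase at the head of the pathway, had 1028, 1019, 433 and 795 normalized reads in TG, against 939, 1441, 654 and 1261 in WT. Its lowest values were TG 6 and WT 5, and its highest WT 4 and WT 7, with wide overlap. For Ulk1, the fitted log2 fold change was -0.41 ± 0.30 (SE; limma adjusted p = 0.92), -0.13 without TG 6 and 0.09 with males only. Becn1, a subunit of the lipid kinase complex that marks the site, had a log2 fold change of 0.16 ± 0.14, and Wipi2, which reads that lipid, one of 0.05 ± 0.17 (SE). In the annotation 43.9% of the exon bases of Becn1 overlap Cntd1 on the other strand.

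Of the 5 conjugation genes, 2 were higher and 3 lower. Atg5, which joins with Atg12 to form part of the ligase for LC3 lipid attachment, had 475, 537, 304 and 476 normalized reads in TG, against 660.1, 692, 489 and 647 in WT. Every TG value but TG 5 lay below every WT value, and WT 5 lay below TG 5. For Atg5, the fitted log2 fold change was -0.49 ± 0.22 (SE; unadjusted p = 0.043, limma adjusted p = 0.92), and it was -0.32 without TG 6 and -0.26 with males only. Atg7, the activating enzyme of the cascade, had 867, 870, 731 and 844 normalized reads in TG, against 684, 714, 657 and 722 in WT. The lowest TG value, TG 6, stood just above the highest WT value, WT 7, so the groups did not overlap. For Atg7, the fitted log2 fold change was 0.25 ± 0.16 (SE; limma adjusted p = 0.92). Atg16l1, which brings the ligase to the membrane, had 701, 1041, 566 and 564 normalized reads in TG, against 864, 1129.6, 602 and 1065 in WT. The groups overlapped, TG 5 being high and WT 5 low, and the fitted log2 fold change of -0.36 ± 0.25 (SE) was 0.03 with males only. Atg3, which transfers LC3, and Atg12, the partner of Atg5, had log2 fold changes of 0.03 ± 0.12 and -0.15 ± 0.14 (SE).

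Of the cargo receptors, Sqstm1 (p62), which binds ubiquitinated cargo and is itself digested with it, had 9018, 6976, 5291 and 9364 normalized reads in TG, against 4410.1, 7061, 6076 and 8726 in WT. WT 3 was lowest and TG 8 highest, but TG 6 lay below 3 of the 4 WT libraries. For Sqstm1, the fitted log2 fold change was 0.23 ± 0.22 (SE; 95% interval -0.24 to 0.70; limma adjusted p = 0.92), and 0.05 without WT 3. Optn, a receptor for damaged mitochondria and bacteria, had a fitted log2 fold change of -0.10 ± 0.14 (SE).

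Tfeb, a transcription factor that switches on lysosome and autophagy genes when it enters the nucleus, had 283, 295, 241 and 227 normalized reads in TG, against 229, 261, 265 and 415 in WT. The TG libraries and 3 WT libraries lay between 227 and 295, and WT 7 stood above them. For Tfeb, the fitted log2 fold change was -0.13 ± 0.25 (SE; limma adjusted p = 0.96), 0.05 without WT 7 and 0.20 with males only. Its entry into the nucleus is not seen in messenger RNA.

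Tfeb binds the CLEAR element GTCACGTGAC, whose core is CACGTG. Promoters of RefSeq (GRCm38.p6, 250 bases before to 50 after the start) were found for 31 of the 39 genes and searched for the core, its extension TCACGTGA and the whole element. All 3 are palindromes, so both strands were read at once, and each shorter motif lies within the longer ones. The core was present in 12 of 31 genes (38.7%), against 2187 of 27025 genes in all (8.09%) and 25 of 125 other genes of the pathways (20%). The extension was present in 6 of 31 (19.4%), against 1.12% of all genes, and the whole element in 0 of 31, against 0.37%. A match is a description of these letters only. The stretches below, each of 60 bases upstream of the start and printed 5′ to 3′ on the gene's strand, show how the core lies in 4 genes among the 12 with the smallest p, and in Lamp1, added after its values were seen because it holds 4 cores. Positions are counted back from the start, -1 being the base before it. The starts used for Ctsa, Mcoln1 and Atg7 lie inside the measured features, which begin at chr2:164832872, chr8:3500506 and chr6:114643097. Capitals mark the core and, where present, its extension.
Ctsa, chr2:164833713-164833772, plus strand, positions -60 to -1: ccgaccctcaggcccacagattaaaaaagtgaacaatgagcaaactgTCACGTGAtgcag
Mcoln1, chr8:3500447-3500506, plus strand, positions -72 to -13: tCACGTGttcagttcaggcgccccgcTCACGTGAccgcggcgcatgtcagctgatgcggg
Atg5, chr10:44268279-44268338, plus strand, positions -60 to -1: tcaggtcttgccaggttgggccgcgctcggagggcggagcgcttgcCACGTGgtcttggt
Atg7, chr6:114670937-114670996, plus strand, positions -159 to -100: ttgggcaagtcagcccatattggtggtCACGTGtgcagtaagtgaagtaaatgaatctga
Lamp1, chr8:13159097-13159156, plus strand, positions -64 to -5: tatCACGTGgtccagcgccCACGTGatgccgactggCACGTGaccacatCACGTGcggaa
The 12 genes with a core had a median log2 fold change of 0.12, with 10 higher in TG. The 19 without one had a median of 0.05, with 11 higher. The 5 genes shown do not share a direction, since Ctsa, Mcoln1 and Atg7 had positive log2 fold changes, that of Lamp1 was 0.01, and that of Atg5 was the lowest of the 39.

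Of the 6 lysosome membrane genes, 4 were higher and 2 lower, with a median log2 fold change of 0.02. Lamp1, a major glycoprotein of that membrane, had 7341, 7659, 6689.8 and 6923 normalized reads in TG, against 6812, 6406, 7174 and 8159.7 in WT. All 4 TG values lay within the WT range, with the lowest value in WT 4 and the highest in WT 7. For Lamp1, the fitted log2 fold change was 0.01 ± 0.12 (SE; 95% interval -0.26 to 0.27; limma adjusted p = 0.995). Mcoln1, a calcium channel of the lysosome, had 3773, 3403, 4111 and 3914 normalized reads in TG, against 2998, 3011, 3933 and 3189.8 in WT. The TG libraries lay above WT 3, 4 and 7, and WT 5 lay among them, and the fitted log2 fold change was 0.22 ± 0.14 (SE; limma adjusted p = 0.92). Lamp2, Scarb2, the receptor that carries glucocerebrosidase to lysosomes, Npc1, a cholesterol exporter, and the tetraspanin gene Cd63 had log2 fold changes between -0.08 and 0.05, and the sign of each turned under at least 1 alternative. Cd63 was highest in TG 5, at 5559 normalized reads.

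**Figure D3:**
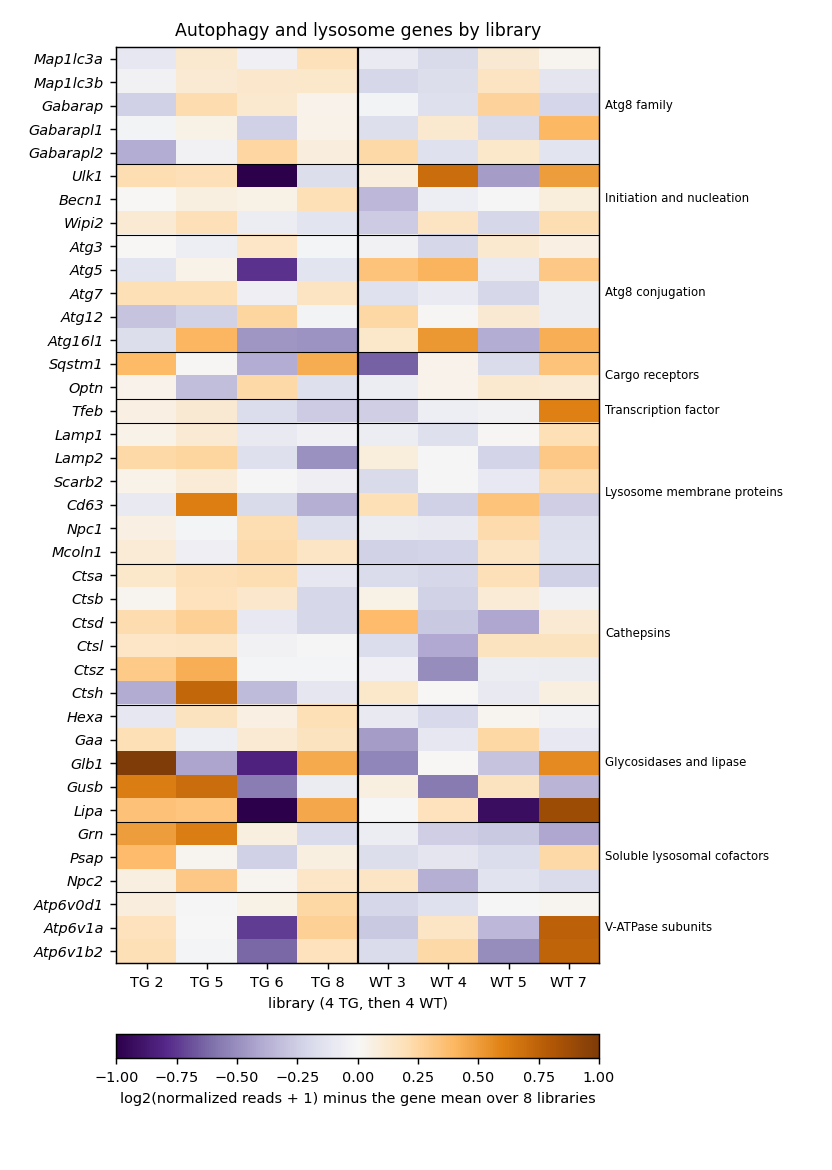
Log2(normalized reads + 1) of the 39 genes (rows, grouped by role) in the 4 TG and then the 4 WT libraries (columns), as the difference from each gene's mean over the 8 libraries, with orange higher and purple lower. Ulk1, Lipa, Atp6v1a and Atp6v1b2 are purple in TG 6, and orange in WT 7. The greatest departures are those of single libraries.

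Among the 6 cathepsin genes, 5 were higher and 1 lower in TG. Ctsz, a carboxypeptidase abundant in microglia and macrophages, had 3700, 4056, 2949 and 2948 normalized reads in TG, against 2903, 2106, 2862 and 2838 in WT. The groups did not overlap, by 2948 in TG 8 against 2903 in WT 3, and WT 4 stood apart below the rest. For Ctsz, the fitted log2 fold change was 0.35 ± 0.16 (SE; unadjusted p = 0.047, limma adjusted p = 0.92), and 0.24 without WT 4. Ctsa, a carboxypeptidase that also protects beta-galactosidase and neuraminidase, had 9159, 9523, 9602 and 7749 normalized reads in TG, against 7307, 7222, 9488 and 7065 in WT. WT 5 lay within the TG range and apart from the other WT libraries, and the fitted log2 fold change was 0.22 ± 0.13 (SE). Ctsd, the main aspartic protease, had 29338, 30655, 23729.8 and 21965 normalized reads in TG, against 33032, 21041, 19089 and 27324 in WT. WT 3, the library with the highest sum of pigment epithelium markers, had the highest value and WT 5 the lowest. The part of that tissue in Ctsd was not tested. For Ctsd, the fitted log2 fold change of 0.09 ± 0.18 (SE; limma adjusted p = 0.96) was 0.24 without WT 3 and -0.03 without WT 5. In the annotation 34.4% of the exon bases of Ctsd also belong to the gene Gm49369 on the same strand. The cysteine protease genes Ctsb, Ctsl and Ctsh had log2 fold changes of 0.06, 0.12 and -0.06, and Ctsh was highest in TG 5, at 3256 normalized reads. Of the exon bases of Ctsl, 26.8% overlap Gm47123 on the other strand and 6.09% the pseudogene Gm49230 on the same strand.

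The remaining soluble hydrolases had 4 members higher and 1 lower. Gaa, the acid alpha-glucosidase that degrades glycogen, had 12672, 10594, 11822 and 12394 normalized reads in TG, against 8044, 10211, 12978 and 10283 in WT. WT 3 was lowest and WT 5 highest, so the TG values lay inside the WT range. For Gaa, the fitted log2 fold change was 0.21 ± 0.15 (SE; limma adjusted p = 0.92), 0.095 without WT 3 and 0.33 without WT 5. Hexa, a subunit of beta-hexosaminidase, had a log2 fold change of 0.16 ± 0.12 and Gusb, beta-glucuronidase, one of 0.34 ± 0.29 (SE). Glb1 had 196, 70.4, 53.1 and 129.7 normalized reads in TG, against 65.5, 94.8, 77.2 and 140.4 in WT. TG 2 was highest and TG 6 lowest, so the TG group alone spanned all 8 values, and the log2 fold change was 0.12 ± 0.45 (SE). Lipa had 259, 256, 84 and 280 normalized reads in TG, against 202, 230.2, 107 and 375 in WT. TG 6 and WT 5 were low and WT 7 was highest, with a log2 fold change of -0.06 ± 0.44 (SE).

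All 3 genes of soluble cofactors had positive log2 fold changes. Grn, which encodes progranulin, a lysosomal protein made mostly by microglia and neurons, had 3363, 3659, 2491 and 2100.3 normalized reads in TG, against 2269, 2002, 1974 and 1791 in WT. TG 2, 5 and 6 lay above every WT library, and TG 8 lay below WT 3. For Grn, the fitted log2 fold change was 0.50 ± 0.18 (SE; 95% interval 0.11 to 0.89; unadjusted p = 0.015, limma adjusted p = 0.92), the highest of the 39, and it ran from 0.38 without TG 5 to 0.64 without TG 8 and was 0.76 with males only. Npc2, which hands cholesterol to Npc1, had 5435, 6451, 5266 and 5748 normalized reads in TG, against 5755, 3983, 4724 and 4577 in WT. WT 3 lay among the TG values and the other WT libraries lay below all of them. For Npc2, the fitted log2 fold change was 0.27 ± 0.14 (SE; limma adjusted p = 0.92) and for Psap it was 0.12 ± 0.15 (SE).

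Microglia express Grn, Ctsz and Ctss, so their markers are given beside these genes. Of 17 microglia and macrophage markers, 16 had positive log2 fold changes and 0 passed, with a median of 0.39. Their sum was 25798, 44513, 29009 and 17042 in TG, against 27198, 19495, 19371 and 17962 in WT, so the groups overlapped, TG 5 being highest and TG 8 lowest. C1qa, C1qb and C1qc, with means of 5594, 6394 and 5443 over the 8 libraries, made up most of that sum. TG 5 was highest for every marker but P2ry12 and Ptprc, highest in WT 3, and Mrc1, highest in TG 6. The lowest library differed more, being TG 8 for C1qb, TG 6 for Tmem119 and WT 5 for P2ry12. Ptprc was lower in TG, with a log2 fold change of -0.41 ± 0.50 (SE). At an unadjusted limma p under 0.05 there were 3 of the 17 (C1qc, Trem2 and Siglech), beside 4.64% of all features. In TG 8, C1qb had 3513 normalized reads, Tmem119 642 and P2ry12 794. Defining markers were present in every library, with Tmem119 at 487 to 947 in TG and 513 to 606 in WT. Of the macrophage markers, Mrc1 was at 0 in TG 8 and WT 4, and Adgre1 in TG 8. Ctss, a protease found in microglia, had 4909, 7115, 4856 and 3601 normalized reads in TG, against 3622, 2977, 2958 and 3496 in WT, with TG 5 highest and TG 8 just below WT 3. For Ctss, the fitted log2 fold change was 0.61 ± 0.18 (SE; limma adjusted p = 0.92). The part of these cells in the values of Grn and Ctsz was not tested.

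**Figure D4:**
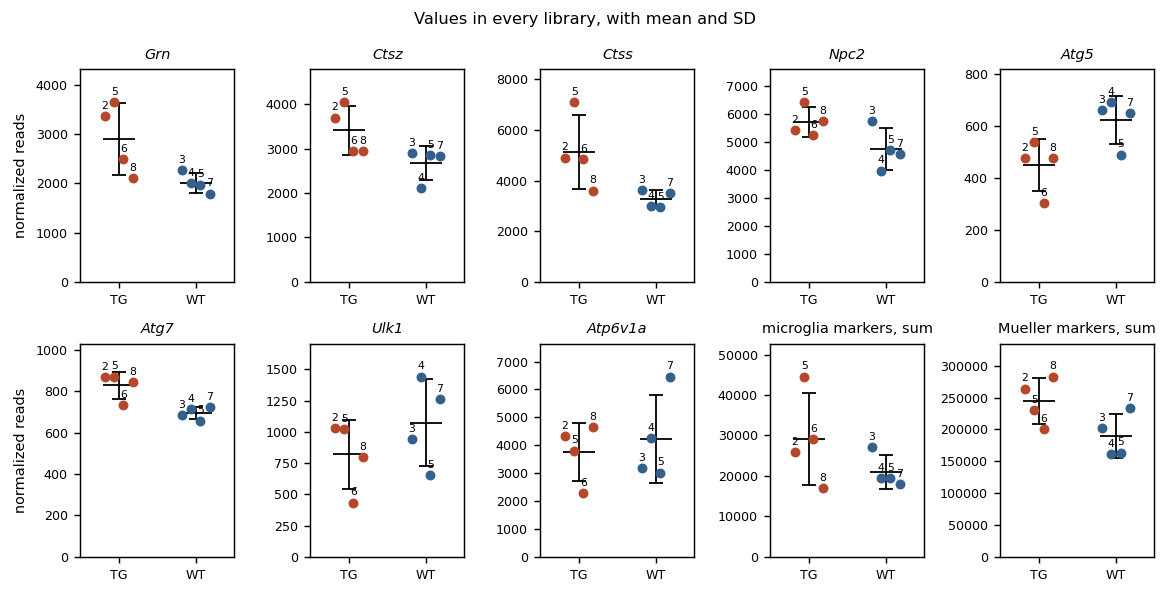
Normalized reads (vertical axes, from 0) of 8 genes and the sums of 17 microglia and 10 Mueller glia markers in the TG (left) and WT (right) libraries, with points numbered by replicate and the mean and SD in black. In the TG group, TG 5 is highest and TG 8 lowest for Grn and for the microglia sum, most of which is C1qa, C1qb and C1qc. TG 6 is lowest for Atg5, Ulk1 and Atp6v1a.

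Of the 3 proton pump genes, Atp6v0d1 was higher and the other two lower. Atp6v1a, the catalytic subunit of the part that splits ATP, had 4325, 3808, 2295 and 4639 normalized reads in TG, against 3169.6, 4255, 3019 and 6458 in WT. TG 6 was lowest and WT 7 highest, and the groups overlapped throughout. For Atp6v1a, the fitted log2 fold change was -0.15 ± 0.26 (SE; limma adjusted p = 0.96), 0.08 without WT 7 and 0.24 with males only. Atp6v1b2, its partner subunit, had the same lowest and highest libraries and a log2 fold change of -0.14 ± 0.25 (SE). Atp6v0d1, of the membrane part, had 8129, 7666, 7988 and 9121 normalized reads in TG, against 6702, 6991, 7671 and 7822 in WT. TG 8 was highest and WT 3 lowest, and the fitted log2 fold change was 0.17 ± 0.12 (SE; limma adjusted p = 0.92). Mueller glia markers also varied between libraries, with a sum of 264299, 229754, 200887 and 282845 in TG, against 202291, 161346, 163559 and 233572 in WT. Apoe, at a mean of 147689 in TG and 100073 in WT, made up most of the mean sum in each group. Its values did not overlap, at 134750 to 166956 in TG and 82481 to 115842 in WT. It was the only 1 of the 10 without overlap, beside 2.53% of all features. For Apoe, the fitted log2 fold change was 0.57 ± 0.15 (SE; unadjusted p = 0.0023, limma adjusted p = 0.92). Of the 10 markers 7 were higher in TG and 3 lower. Vim ran otherwise than the sum, lowest in TG 8 and highest in WT 5. TG 6 was the lowest TG library and WT 7 the highest WT library in that sum, as for Atp6v1a, and the part of these cells in the pump values was not tested.

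Libraries can be compared by the median, over genes, of the log2 deviation from each gene's 8-library mean. For the 23 lysosome genes it was 0.14, 0.17, -0.04 and -0.02 in TG, against -0.08, -0.15, -0.07 and 0.02 in WT. TG 2 and TG 5, the male TG retinas, stood highest, while TG 6 and TG 8 lay within the WT range. For the 16 autophagy genes it was -0.01, 0.09, -0.05 and 0.01 in TG, against -0.07, -0.02, -0.03 and 0.10 in WT, with no separation of the groups. With males only (2 TG against 3 WT libraries) the median log2 fold change of the lysosome genes was 0.24 and that of the autophagy genes 0.07, and 0 of 39 passed. The lysosome median of 0.12 was 0.045 without WT 4 and 0.067 with eye side as a term, and the autophagy median ran from -0.044 without WT 4 to 0.042 without WT 7. The WT group holds 1 female, and a difference of the genotype effect between sexes was not tested. Within groups, the median coefficient of variation of the 39 genes was 12.8% in TG and 14.6% in WT, against 27.0% in TG and 26.7% in WT for all features, and 19.5% in TG and 19.0% in WT for features with a mean at least that of the lowest of the 39.

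Other genes of the same pathways gave 0 calls among 146 tested, of 153 listed. Of these, 69 were higher and 77 lower in TG, with a median log2 fold change of -0.01, and 7 had an unadjusted p under 0.05, where 4.64% of all features did. In the rest of the autophagy machinery, 8 of 26 were higher, and Rubcn, an inhibitor of autophagosome maturation, had 240.1 ± 51.4 normalized reads in TG and 364 ± 138 in WT (SD, n = 4 each). The log2 fold changes of Rubcn and of the kinase gene Ulk2 were -0.53 ± 0.31 and -0.36 ± 0.26 (SE). For Rubcn the value ran from -0.82 without WT 5 to -0.19 with males only, and for Ulk2 from -0.58 without WT 5 to 0.03 with males only, with -0.17 without TG 6. Among 10 other receptors 3 were higher, with log2 fold changes of 0.28 ± 0.14 for Calcoco1, an autophagy receptor, and -0.24 ± 0.17 for Nbr1, a relative of p62 (SE). Of 14 genes for fusion with the lysosome 7 were higher, with log2 fold changes of -0.23 ± 0.16 for Vamp8, a SNARE, and -0.33 ± 0.23 for Plekhm1, a tethering adaptor (SE).

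The list of Tfeb relatives and their regulators had 1 of 9 tested genes higher and 8 lower, with a median of -0.23. Rptor, which encodes a subunit of the kinase complex mTORC1, had 95.7, 44, 42 and 24.4 normalized reads in TG, against 71.6, 165, 75 and 161 in WT. TG 2 lay within the WT range and the other TG libraries lay below it. For Rptor, the fitted log2 fold change was -1.24 ± 0.49 (SE; unadjusted p = 0.025, limma adjusted p = 0.92), and -0.56 with males only. Fnip1, a partner of folliculin in that pathway, had a log2 fold change of -0.66 ± 0.30 (SE; limma adjusted p = 0.92), or -0.14 with males only.

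Of the other lysosomal proteases 6 of 10 were higher, and Scpep1, a serine carboxypeptidase, had a fitted log2 fold change of 0.45 ± 0.24 (SE). The 30 other hydrolases were split, 14 higher and 16 lower. Among them Arsa, a sulfatase, had a log2 fold change of 0.48 ± 0.28, and Gm2a, the activator of ganglioside breakdown, one of 0.25 ± 0.13 (SE). Of 20 other membrane genes 14 were higher. Laptm5, expressed in blood-derived cells and microglia, had 1221, 1361, 580.4 and 673 normalized reads in TG, against 801, 368, 465 and 469 in WT, with TG 2 and TG 5 above every WT library and TG 6 and TG 8 within the WT range. For Laptm5, the fitted log2 fold change was 0.83 ± 0.30 (SE; unadjusted p = 0.016, limma adjusted p = 0.92). Cd68 had 969, 1439, 622 and 126 normalized reads in TG, against 797, 324, 427 and 359 in WT, with TG 8 the lowest of all, and Lamp5 had a fitted log2 fold change of 0.54 ± 0.30 (SE).

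In the sorting of enzymes to the lysosome, 4 of 9 genes were higher. Igf2r, the large mannose 6-phosphate receptor, had 271, 220.1, 180.3 and 209.7 normalized reads in TG, against 483, 272, 284 and 295 in WT. The TG values lay just below the WT values, with no overlap, and WT 3 stood apart. For Igf2r, the fitted log2 fold change was -0.57 ± 0.26 (SE; unadjusted p = 0.045, limma adjusted p = 0.92), and -0.38 without WT 3. Sort1, sortilin, had a fitted log2 fold change of -0.54 ± 0.25 (SE), -0.34 without WT 7 and -0.09 with males only. Of 18 other V-ATPase subunits and partners 12 were higher. Atp6v0c, the proteolipid of the membrane ring, had 32229, 30459.5, 35548 and 36471 normalized reads in TG, against 24620.2, 24480.1, 35643 and 24824 in WT. WT 5 lay within the TG range and the other WT libraries far below it. For Atp6v0c, the fitted log2 fold change was 0.31 ± 0.14 (SE; unadjusted p = 0.049, limma adjusted p = 0.92), and Atp6v0a1 had a fitted log2 fold change of 0.28 ± 0.14 (SE).

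**Figure D5:**
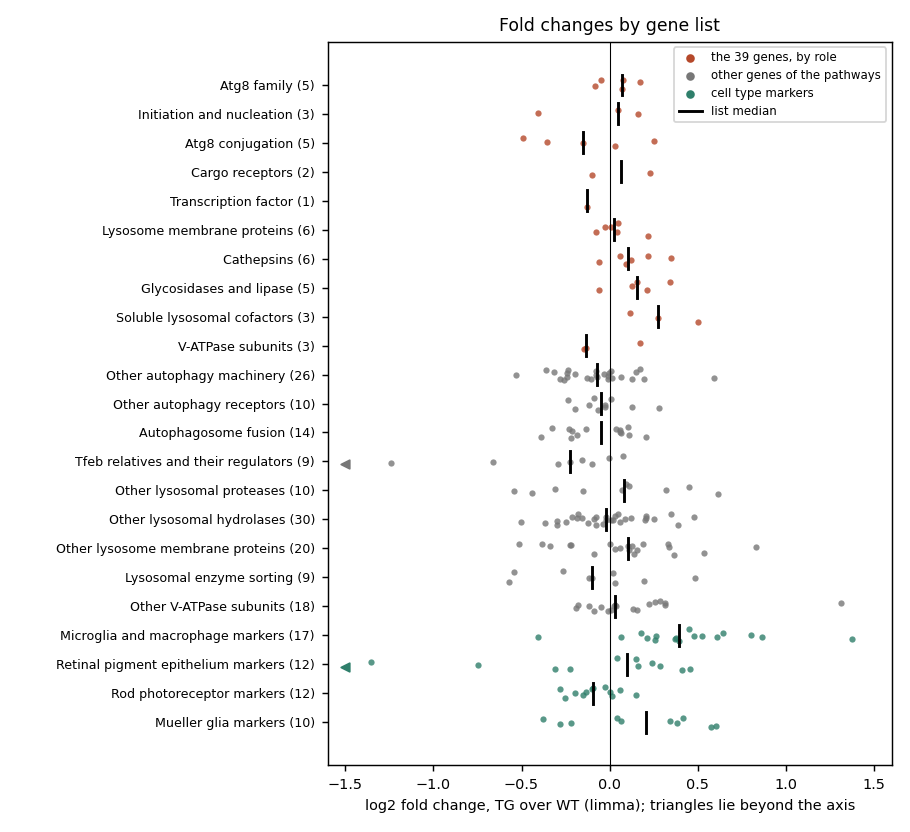
Log2 fold change of TG over WT (horizontal axis, limma) for every tested gene (points) of each list except the lens markers (rows, number of genes in parentheses), with the list median as a black bar. The 12 lens markers, not drawn, had a median of 0.91, with 11 higher in TG. Their median standard error was 1.80, and their summed reads had a mean of 7462 in TG and 7275 in WT. The 39 genes are in red, other genes of the pathways in grey and markers in green, and 2 genes below -1.5 are drawn as triangles at the edge. Medians of the 39 by role lie between -0.15 and 0.27, and that of the microglia markers at 0.39.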

How the data were processed

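Messenger RNA of 4 TG and 4 WT retinas was sequenced after poly(A) selection with a strand-marking kit, per the labels' protocols. The deposited values are a signal, read counts that the authors divided by 1 DESeq2 size factor per library, per the submitters' processing notes and the file headers. The notes also list STAR 2.4.0, SAMtools, Picard and FastQC, with the builds mm10 and GRCm38. Not given in the sources used here are how reads were counted, by strand or not, and on which annotation. In each column 100% of values were within 0.01 of a whole multiple of the smallest positive value, so reads were recovered. The number of sample columns left unused was 0.

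Features with a mean of at least 10 were tested with limma 3.58.1 (R 4.3.3) on log2(value + 1) with a trended prior variance, two-sided, and p-values were adjusted by Benjamini-Hochberg at 0.05. The added 1 shrinks the fold changes of low genes, but a library at 0 can widen them. For Tyr, at 0 in TG 8, the fitted fold of TG over WT was 0.32, where the ratio of the group means was 0.47. edgeR 4.0.16, which called 2 features, and DESeq2 1.42.0, which called 16, were run on the recovered reads. The procedure was tested on simulated counts.

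The 39 genes and the lists of other genes and markers were chosen with earlier results of these data known. Values in every library are given for the 12 of the 39 with the smallest p and for Sqstm1, Map1lc3b, Tfeb, Lamp1, Ctsd and Atp6v1a. Of each other list the 2 with the smallest p are named, with Ctss and Cd68, and 1 gene that the rule takes is not reported here. Values in every library for Glb1 and Lipa, the genes Mitf and Gpnmb and the Lamp1 promoter were chosen after their values were seen. Exon lengths and overlaps come from GENCODE M21. Alternatives were another filter (none, or a mean of 50) or pseudocount (0.5 or 5), TMM scaling, a term for sex or for eye, only males, and leaving out libraries.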

Additional observations from a re-analysis of the deposited data

Results flagged for a closer look

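Among the 39 genes and the 22 other genes named, 7 of 122 groups of 4 libraries held 1 library far from the other 3 by Dixon's test at 95%, where chance gives about 1 in 20 groups. Map1lc3b had 14419 normalized reads in TG 2 against 15913 to 16205 in the other TG libraries. Lipa had 84.0 in TG 6 against 256 to 280 in the other TG libraries. Ctsa had 9488 in WT 5 where WT 3, 4 and 7 had 7065 to 7307, and Atp6v0c had 35643 in WT 5 against 24480 to 24824. Ctsz had 2106 in WT 4 against 2838 to 2903. Psap had 32072 in WT 7 against 24303 to 25200.0, and Igf2r had 483 in WT 3 against 272 to 295.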

How the results depend on the processing

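None of the 39 genes passed under any of the 19 alternatives, and 19 of them kept the sign of the log2 fold change in every one. The fitted value moved by over 1.5 times or turned sign for 30 of the 39 on leaving out 1 library and for 31 with males only. The count of all features called was 2, and 1 without a filter, with a mean of 50 required, a pseudocount of 0.5 or sex as a term, 16 with DESeq2, 4 with males only, and 1 to 3 without any 1 library. The median log2 fold change of the 39 was 0.06, 0.17 with males only, and 0.02 to 0.12 without any 1 library. Signs changed with edgeR for Cd63 (0.0092) and Ctsh (0.015), with DESeq2 for Cd63 (0.0028) and Ctsh (0.013), with sex as a term for Lamp1 (-0.0015) and Cd63 (0.090), and with eye side as a term for Lamp1 (-0.014), Cd63 (0.048), Ctsh (0.030) and Gpnmb (-0.0067). With males only they changed for Gabarap (-0.038), Gabarapl1 (0.090), Ulk1 (0.092), Atg16l1 (0.028), Tfeb (0.20), Lamp2 (0.29), Cd63 (0.16), Npc1 (-0.00019), Ctsh (0.15), Lipa (0.59), Atp6v1a (0.24), Atp6v1b2 (0.24), Ulk2 (0.025) and Nbr1 (0.036). Without WT 3 and TG 6 they changed for Atg3 (-0.016), Scarb2 (-0.0050), Cd63 (0.096), Npc1 (-0.032), Ctsh (0.077) and Lipa (0.33). Leaving out 1 library at a time turned the sign of Gabarapl1 (-0.16 to 0.036), Gabarapl2 (-0.14 to 0.074), Wipi2 (-0.030 to 0.13), Atg3 (-0.030 to 0.077), Tfeb (-0.24 to 0.049), Lamp1 (-0.043 to 0.073), Lamp2 (-0.18 to 0.069), Scarb2 (-0.015 to 0.12), Cd63 (-0.23 to 0.096), Npc1 (-0.014 to 0.13), Ctsb (-0.0062 to 0.14), Ctsd (-0.028 to 0.24), Ctsh (-0.31 to 0.062), Glb1 (-0.20 to 0.42), Lipa (-0.38 to 0.35), Atp6v1a (-0.28 to 0.081), Atp6v1b2 (-0.33 to 0.086), Cd68 (-0.074 to 1.09) and Gpnmb (-0.13 to 1.24), with the lowest and highest value in parentheses. The cause was not tested. No paired analysis was possible because the labels give no pairing of TG with WT mice. With 4 libraries a group, the 95% interval reaches past a 1.5-fold change for 13 of the 39 genes.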

Other observations

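Gpnmb, a membrane protein of lysosomes that is abundant in pigmented cells and in macrophages loaded with lipid, had 1966, 3059, 2104 and 187 normalized reads in TG, against 2199, 594, 378 and 1909.8 in WT. TG 8 had the lowest value of all 8 libraries and TG 5 the highest, and WT 4 and WT 5 were low as well. For Gpnmb, the fitted log2 fold change was 0.33 ± 0.76 (SE; limma adjusted p = 0.97). Mitf, a relative of Tfeb that directs pigment cells, was near the limit of the data, with 23.9, 12.3, 34.6 and 0 normalized reads in TG, against 51.2, 57.1, 30.6 and 47.8 in WT. For Mitf, the fitted log2 fold change was -2.16 ± 0.99 (SE; limma adjusted p = 0.92), and -1.03 without TG 8, where it was at 0 and a count of 0 allows up to 3 reads.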
